A study of Mus musculus with 4 samples.

Results

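Neurofilament, tau and neuronal cytoskeleton genes are described here as a set of 10: the neurofilament genes Nefl, Nefm, Nefh and Ina, the genes of the microtubule-binding proteins Mapt, Map2 and Map1b, the neuronal tubulin gene Tubb3, and the genes Stmn2 and Dcx, whose products act on growing microtubules. They were found by gene symbol on the array. The array carries 20 spots for the 10 genes, and 16 spots of 9 genes had a value on all 4 arrays, out of 11791 genes measured in that way. Both spots of Nefh were without a value on every array, so Nefh is not described further. The study compared 152F7 and wild-type mouse embryos of the FVB strain at stage E12.5 (embryonic day) in RNA of the telencephalon, the forerunner of the cerebral hemispheres. 152F7 is a transgenic line that carries a yeast artificial chromosome with human DNA around DYRK1A, a kinase gene of the Down syndrome region. One RNA pool of each genotype was labelled with Cy3 or Cy5, and the 2 pools were hybridised together on 4 two-colour arrays. The number of embryos in a pool is not stated in the sources used here. On 2 arrays the 152F7 pool carried Cy5 and on the other 2 the wild-type pool did.

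Neurofilaments are the intermediate filaments of axons. Nefl, Nefm and Nefh encode the light, medium and heavy chains, and Ina encodes alpha-internexin, a further chain that is made early in neuronal development. Tau, Map2 and Map1b bind microtubules and stabilise them, tau mainly in axons and Map2 mainly in dendrites. At this stage of the telencephalon most cells still divide, and the first neurons have begun to send out processes, so genes of this kind mark the young neurons.

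The deposited values are log ratios per spot, read here as log2. A value above 0 means more RNA in the numerator pool, and one below 0 means more in the denominator pool. Which pool is the numerator, 152F7 or wild type, is not given in the sources used here and could not be settled from the values. All 4 arrays were taken to have the same pool in the numerator, and the values with the wild-type-in-Cy5 arrays turned, which would be 152F7 over wild type if each value were Cy5 over Cy3, are given below as well. The 4 arrays measured 1 pool per genotype, so no test between genotypes was possible. The SD printed is over the 4 arrays. Differences between the dye orientations enter this SD but not the mean, and the spread between embryos is not in it. To count as higher or lower, a gene needed a mean of at least 0.09 in size (1.06-fold) and one sign on all 4 arrays. At that threshold the contrasts between replicate arrays give at most 5% as many genes as the pools do. A gene with replicates of like sign in either orientation cannot pass in these contrasts but can in the pool count. The 5% is therefore not a measure of replicate noise among the counted genes.

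Of the 9 measured genes, 4 were higher in the numerator pool (Nefm, Nefl, Mapt and Map1b) and 0 were lower. Over all 11791 genes the same rule counted 7.07% as higher and 4.15% as lower. The same 4 of the 9 were the ones above 0 on all 4 arrays, and 0 were below 0 on all 4, where 12.8% and 9.86% of all genes were. The median of the 9 genes was 0.11 ± 0.053 (SD of the medians on the 4 arrays), against 0.0021 for all genes, and without replicate 1 of wild type in Cy5 it was 0.17. The differences were small. At 1.2-fold 2 of the 9 were higher, Nefm and Nefl, where 0.483% of all genes were higher and 0.237% lower, and at 1.5-fold 0 were higher or lower, where 0.0763% of all genes were higher and 0.00848% lower. In a pooled tissue, fewer cells of a type and less RNA per cell cannot be told apart.

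**Figure D1:**
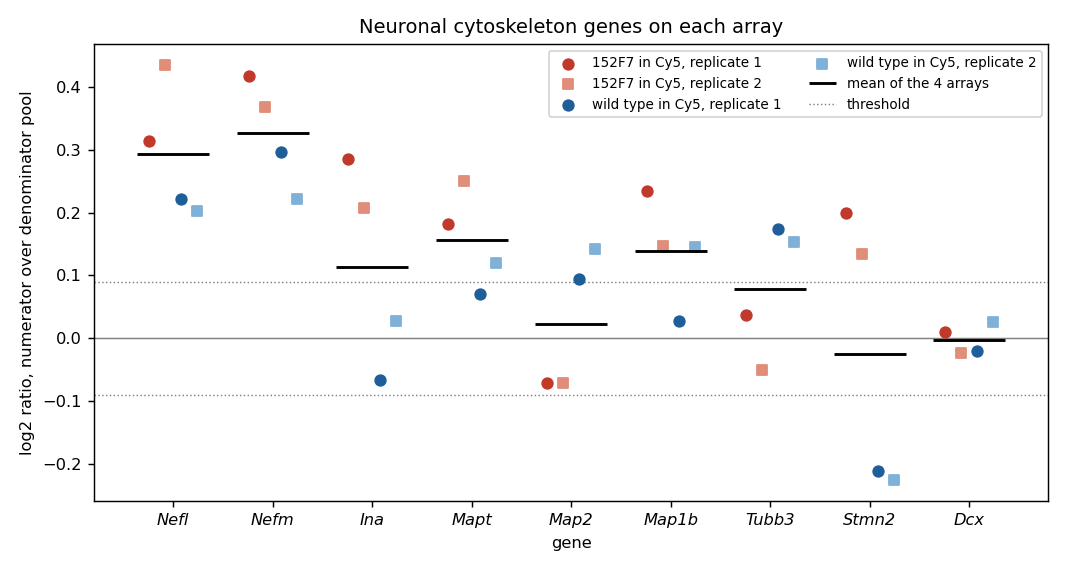
Log2 ratio of the numerator over the denominator pool (vertical axis) for 9 genes on each of the 4 arrays, as points coloured by dye orientation. Black bars are the means of the 4 arrays, and dotted lines mark the threshold of 0.09 on either side of 0. All 4 points lie above 0 for Nefl, Nefm, Mapt and Map1b, while those of Stmn2 split by orientation.

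The medium and light neurofilament genes had the highest means of the 9. Nefm had log2 ratios of 0.42 and 0.37 with 152F7 in Cy5, and of 0.30 and 0.22 with wild type in Cy5. Its mean was 0.33 ± 0.085 (SD, n = 4 arrays), a ratio of 1.25, the 34th highest mean of the 11791 genes. All 4 arrays put Nefm above 0, and both arrays with 152F7 in Cy5 lay above both of the other orientation. Nefl had log2 ratios of 0.31 and 0.44 with 152F7 in Cy5, and of 0.22 and 0.20 with wild type in Cy5. The mean of Nefl was 0.29 ± 0.11, a ratio of 1.23 and the 41st highest. Nefl, too, was above 0 on every array, with the same order of the orientations. Nefl and Nefm are next to each other on chromosome 14 and their means differed by 0.033 ± 0.076 (Nefm above Nefl on 3 of 4 arrays), which is less than the spread between arrays.

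The 2 spots of Nefl were unlike in their spread. The spot for transcript AK149219 gave 0.22 and 0.25 with 152F7 in Cy5 and 0.24 and 0.21 with wild type in Cy5, a mean of 0.23 ± 0.017. The spot for NM_010910 gave 0.40 and 0.62 with 152F7 in Cy5 and 0.20 and 0.19 with wild type in Cy5, a mean of 0.35 ± 0.20. Both spots were thus above 0 on all 4 arrays, and the higher value of the gene with 152F7 in Cy5 came from the second one.

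Alpha-internexin did not share the pattern on all arrays. Ina had log2 ratios of 0.29 and 0.21 with 152F7 in Cy5, and of -0.067 and 0.027 with wild type in Cy5. Its mean was 0.11 ± 0.16, not above the spread between arrays, and the 2 orientations did not overlap. Ina was below Nefm on all 4 arrays (Nefm minus Ina 0.21 ± 0.10) and below Nefl on all 4 (Nefl minus Ina 0.18 ± 0.11).

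**Figure D2:**
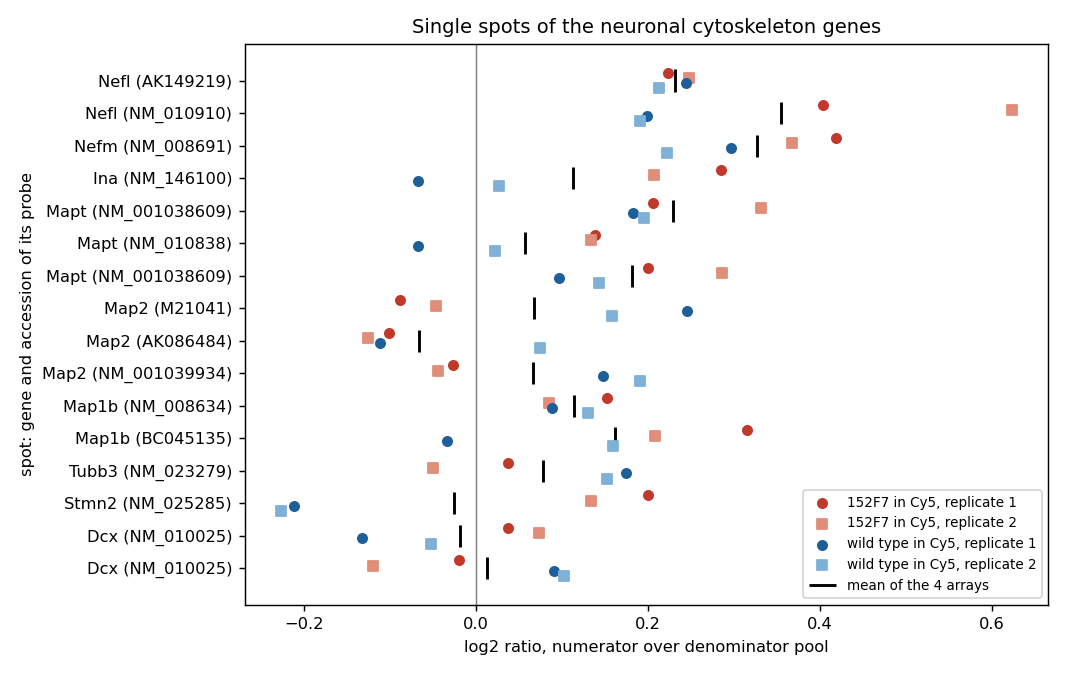
Log2 ratio of the numerator over the denominator pool (horizontal axis) for each of the 16 spots with a value on all 4 arrays, named by gene and by the transcript accession in the platform annotation. Points are single arrays coloured by dye orientation, and black bars are the means of the 4 arrays. The spots of Nefl, Nefm and the Mapt transcript NM_001038609 lie above 0 on every array, whereas the 2 spots of Dcx split by orientation in opposite ways.

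Among the microtubule-binding proteins, Mapt and Map1b were higher and Map2 was not. Mapt, which encodes tau, had log2 ratios of 0.18 and 0.25 with 152F7 in Cy5, and of 0.071 and 0.12 with wild type in Cy5. The mean of Mapt was 0.16 ± 0.078, a ratio of 1.11. Mapt was thus above 0 on all 4 arrays, lowest where wild type was in Cy5. Of its 3 spots, 2 stand for the transcript NM_001038609, with means of 0.23 ± 0.069 and 0.18 ± 0.081, both above 0 on all arrays. The spot for NM_010838 had a mean of 0.057 ± 0.099 and was at -0.067 on 1 array, so with the spot nearest to 0 taken for each gene Mapt was not counted as higher.

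Map1b encodes a protein of growing axons. It had log2 ratios of 0.23 and 0.15 with 152F7 in Cy5, and of 0.028 and 0.14 with wild type in Cy5, a mean of 0.14 ± 0.085. All arrays lay above 0, and the orientations did not overlap, by a small gap. Its spot for NM_008634 had a mean of 0.11 ± 0.033, above 0 on all arrays, and the spot for BC045135 had 0.16 ± 0.15, with -0.034 on 1 array. With wild type in Cy5 alone Map1b had 0.086, just under the threshold.

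Map2 had log2 ratios of -0.072 and -0.072 with 152F7 in Cy5, and of 0.094 and 0.14 with wild type in Cy5. The orientations were thus of opposite sign, and the mean of 0.023 ± 0.11 was smaller than its SD. Its 3 spots had means of 0.068 ± 0.16 (M21041), -0.066 ± 0.094 (AK086484) and 0.067 ± 0.12 (NM_001039934), and each was below 0 on both arrays with 152F7 in Cy5. Map1b was above Map2 on 3 of 4 arrays, but the difference (Map2 minus Map1b -0.12 ± 0.18) was within the spread.

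The promoters of Map1b and Map2 are shown because Map1b was counted as higher and Map2, of the same protein class, was not. Of the 10 genes, 5 had an entry in the RefSeq promoter table of build GRCm38.p6 (Map2, Tubb3, Map1b, Ina and Dcx). The 250 bases before the start of transcription are printed, 5′ to 3′, for Map1b (chr13:99516603-99516852, minus strand) and Map2 (chr1:66175079-66175328, plus strand). Capitals mark GGGCGG, the core of the GC box bound by Sp1 (either strand), and CANNTG, the E-box bound by factors such as the neurogenins.
Map1b: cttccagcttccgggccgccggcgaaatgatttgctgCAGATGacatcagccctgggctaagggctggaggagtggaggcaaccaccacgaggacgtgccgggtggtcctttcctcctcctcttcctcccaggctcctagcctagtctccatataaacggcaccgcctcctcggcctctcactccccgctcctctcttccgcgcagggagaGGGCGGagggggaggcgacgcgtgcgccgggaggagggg
Map2: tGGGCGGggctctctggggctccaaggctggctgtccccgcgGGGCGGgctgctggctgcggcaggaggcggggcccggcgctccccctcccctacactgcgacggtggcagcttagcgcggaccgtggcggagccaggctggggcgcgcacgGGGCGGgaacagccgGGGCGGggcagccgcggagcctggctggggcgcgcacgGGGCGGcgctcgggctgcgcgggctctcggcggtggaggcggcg
GGGCGG was present 5 times before Map2 and 1 time before Map1b. Of all 32851 promoters in windows of the same length, 32.7% had it at least 1 time, with a median of 0 per promoter. CANNTG was present 1 time before Map1b and 0 times before Map2. Of all promoters, 66.2% had it at least 1 time, with a median of 1 per promoter. GC content was 66.4% before Map1b and 81.2% before Map2. Before Tubb3 and Ina, neither counted as higher, there were 2 GGGCGG each, with 0 CANNTG before Tubb3 and 1 before Ina. Before Dcx there were 0 of either. A match is a run of letters only and was not measured as a binding site.

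The tubulin gene and both regulators of microtubule growth were not counted in either direction. Tubb3, the class III beta-tubulin that serves as a marker of young neurons, had log2 ratios of 0.037 and -0.050 with 152F7 in Cy5, and of 0.17 and 0.15 with wild type in Cy5. Its mean was 0.078 ± 0.10. Here the wild-type-in-Cy5 arrays were the higher ones, in contrast to Nefl, Nefm and Mapt, and the orientations did not overlap.

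Stmn2 encodes a stathmin that binds tubulin in growth cones. It had log2 ratios of 0.20 and 0.13 with 152F7 in Cy5, and of -0.21 and -0.23 with wild type in Cy5. The mean of -0.026 ± 0.22 came from values of opposite sign in the 2 orientations, each well reproduced, with a replicate SD within orientations of 0.034. A second spot of Stmn2 had no value on any array. Dcx, which encodes doublecortin, a microtubule protein of migrating neurons, had log2 ratios of 0.0090 and -0.023 with 152F7 in Cy5, and of -0.020 and 0.025 with wild type in Cy5, a mean of -0.0024 ± 0.023. That narrow spread came from averaging 2 spots that split by orientation in opposite ways. One had 0.037 and 0.074 with 152F7 in Cy5 and -0.13 and -0.052 with wild type in Cy5, and the other had -0.019 and -0.12 with 152F7 in Cy5 and 0.091 and 0.10 with wild type in Cy5. Another spot of Dcx had a value on 2 arrays only, -0.018 and 0.066, 1 of each orientation.

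In order of their means the genes ran Nefm, Nefl, Mapt, Map1b, Ina, Tubb3, Map2, Dcx and Stmn2. Only the steps from Nefl to Mapt (0.14 ± 0.043) and from Tubb3 to Map2 (0.056 ± 0.047) had the first gene above the second on all 4 arrays, and the other neighbours did not differ beyond the spread of their difference between arrays. Of the 9 genes, 6 and 4 lay above the 90th percentile of all genes on the 2 arrays with 152F7 in Cy5, and 3 and 5 on the 2 with wild type in Cy5. In the 2 contrasts of replicate arrays, which hold no genotype, none of the 9 passed the threshold. Under the sign rule a gene can pass there only if its replicates differ in sign in both orientations. Among the 9 only Dcx had such values, so for the others that result was fixed beforehand. The threshold was also set so that these contrasts count few genes, and the result does not set the 9 apart from other genes. Over all genes, 29 were higher and 33 lower in the first contrast, and 19 were higher and 35 lower in the second. The largest means of the 9 in these contrasts were 0.031 and 0.051 in size.

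**Figure D3:**
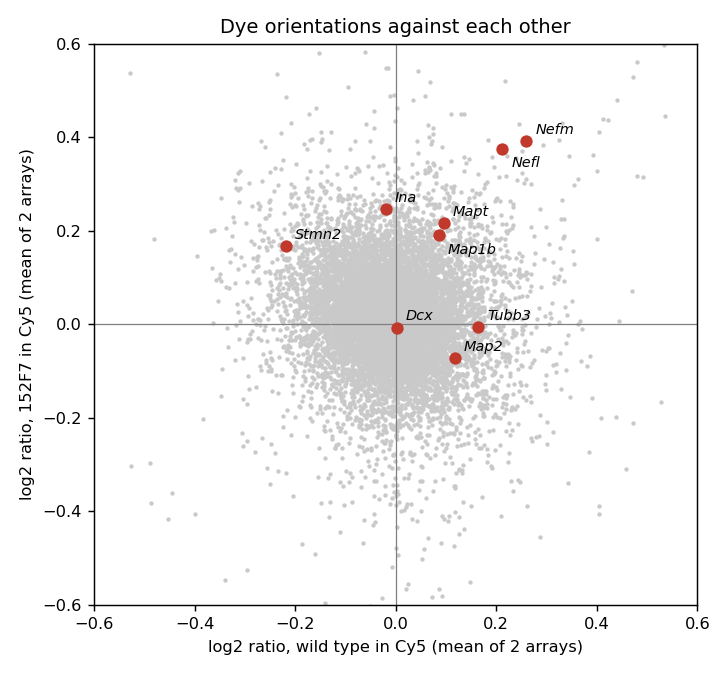
Mean log2 ratio of each gene on the 2 arrays with 152F7 in Cy5 (vertical axis) against that on the 2 with wild type in Cy5 (horizontal axis), both numerator over denominator pool. Grey points are all 11791 genes (29 lie outside the axes) and red points are the 9 neuronal cytoskeleton genes. Nefm and Nefl lie in the upper right, high in both orientations, and Stmn2 in the upper left, with opposite signs.

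Turning the sign where wild type carried Cy5 changed which genes were counted. In that reading, as 152F7 over wild type, Stmn2 was higher at 0.19 ± 0.041 and Map2 was lower at -0.095 ± 0.033, and the other 7 were not counted. Over all genes 10.8% were higher and 5.55% lower in that reading. Nefl had 0.081, Nefm 0.067, Mapt 0.060, Map1b 0.052, Ina 0.13, Tubb3 -0.085 and Dcx -0.0046 as turned means. The median of the 9 was 0.060, against 0.014 for all genes. Of the 5 genes with several spots, all spots had one sign in 3 genes in the values as deposited and in 4 genes in the turned reading, so these genes do not by themselves tell the readings apart. Over 4352 genes with at least 2 spots, the Pearson correlation across genes between the first 2 spots was 0.421 as deposited and 0.0973 turned, beside 0.0707 and 0.0509 in the contrasts of replicate arrays, and genes are not independent replicates.

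The other lists of cytoskeleton genes had medians nearer to 0, between 0.0071 and 0.036. Their counts stand beside 7.07% of all genes higher and 4.15% lower. Of 25 measured genes of other microtubule-associated proteins 4 were higher and 0 lower (median 0.033). These were Dclk2, a doublecortin-like kinase, at 0.20 ± 0.16, Camsap3, which caps microtubule minus ends, at 0.14 ± 0.049, Crmp1, a collapsin response mediator, at 0.11 ± 0.092, and Mapre2, an end-binding protein, at 0.10 ± 0.12. Map1a, the close relative of Map1b, had 0.080 ± 0.11, and the stathmins Stmn1, Stmn3 and Stmn4 had 0.0066, -0.052 and -0.033. Of 12 other tubulins 1 was higher, Tuba1a, the main alpha-tubulin of young neurons, at 0.13 ± 0.040 (median of the list 0.014).

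Of 8 other intermediate filament genes 1 was higher and 0 lower (median 0.0071). It was Synm, which encodes synemin, a partner of vimentin and desmin, at 0.27 ± 0.065, with 0.31 and 0.33 with 152F7 in Cy5 and 0.25 and 0.19 with wild type in Cy5. Nes and Vim, the intermediate filaments of neural stem cells, had 0.072 ± 0.058 and 0.084 ± 0.074. Prph, the peripherin of peripheral neurons, had no value on all 4 arrays.

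Of 27 kinases, phosphatases and cofactors that act on tau or neurofilaments 4 were higher and 1 lower (median 0.013). The higher ones were the casein kinase gene Csnk1e at 0.21 ± 0.14, the phosphatase 2A subunit genes Ppp2r2b at 0.18 ± 0.064 and Ppp2r2c at 0.12 ± 0.062, and Mark4, a kinase that frees tau from microtubules, at 0.16 ± 0.090. The lower one was Cdk5r2, an activator of the neuronal kinase Cdk5, at -0.19 ± 0.12, below 0 on all 4 arrays. Dyrk1a, whose product phosphorylates tau, had 0.028 ± 0.13 and was not counted in the values as deposited. It had 0.13 and 0.13 with 152F7 in Cy5, and -0.14 and -0.0097 with wild type in Cy5. Its turned mean was 0.10, past the threshold with one sign on all arrays, so Dyrk1a counted as higher in that reading.

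Among 22 genes of axonal transport motors 4 were higher and 0 lower (median 0.021). They were the kinesins Kif21b at 0.21 ± 0.073, Kif5a at 0.19 ± 0.16 and Kif1a at 0.13 ± 0.081, and Dync1h1, the dynein heavy chain, at 0.18 ± 0.068. Of 19 genes of the growth cone and the membrane cytoskeleton 2 were higher and 0 lower (median 0.036), Ank3, the ankyrin of the axon initial segment, at 0.18 ± 0.12 and Basp1, a growth cone protein, at 0.096 ± 0.045. Gap43, another growth cone protein, had 0.0005 ± 0.038. In the turned reading 0 of these 19 were higher and 3 lower (median -0.051). In that reading 10.8% of all genes were higher and 5.55% lower. The counts of higher and lower genes were then 3 and 2 for the microtubule-associated proteins and 1 and 2 for the tubulins. They were 1 and 1 for the intermediate filaments, 3 and 2 for the kinases and phosphatases, and 2 and 0 for the motors.

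**Figure D4:**
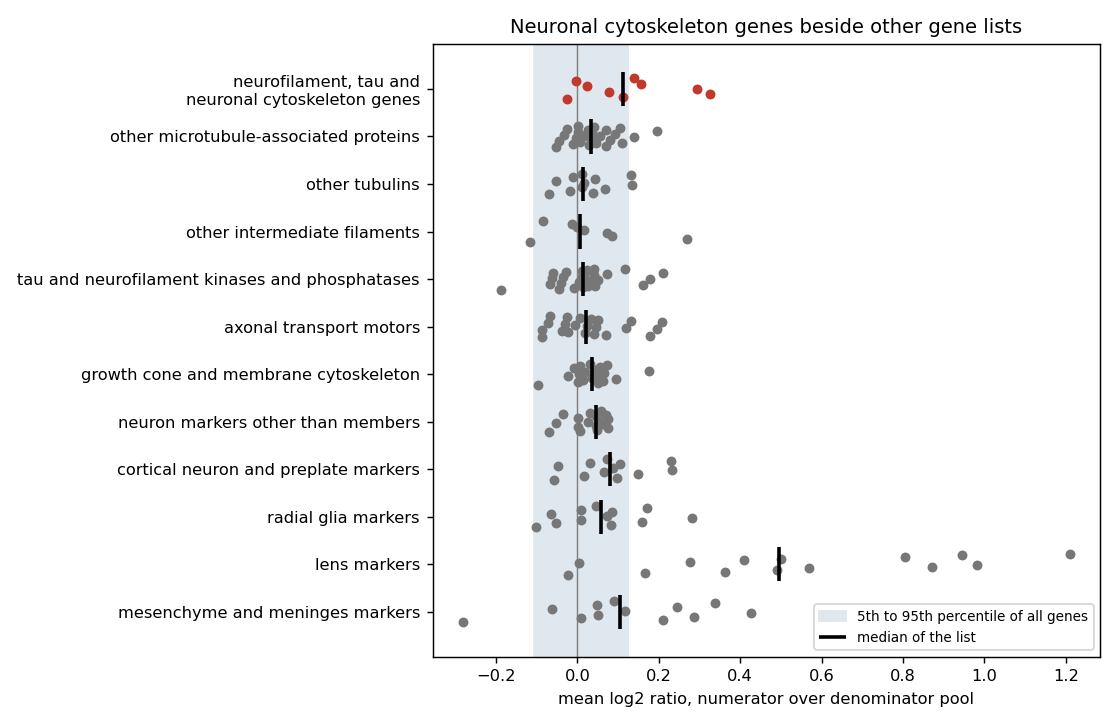
Mean log2 ratio over 4 arrays, numerator over denominator pool (horizontal axis), of single genes as points in 12 gene lists, with the neuronal cytoskeleton genes in red at the top and black bars at the medians. The shaded band spans the 5th to the 95th percentile of all genes, -0.11 to 0.12. Nefm, Nefl, Mapt and Map1b lie to the right of the band, as do most lens genes, while the 17 other neuron markers lie inside it.

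In the values as deposited, no general neuron marker passed the threshold. Of 17 measured neuron markers other than the 9 genes, 0 were higher and 0 lower. Over all genes 7.07% were higher and 4.15% lower, so a count of 0 among 17 is near that share. Their median was 0.045 ± 0.046, with means between -0.070 (Elavl2) and 0.075 (Syp). Of the 17, 14 had a mean above 0, as had 6068 of all 11791 genes. In the turned reading 1 was higher and 3 were lower (median -0.023), where 10.8% and 5.55% of all genes were. Of 12 markers of cortical and preplate neurons 2 were higher and 0 lower (median 0.081 ± 0.032), the bHLH factors Nhlh1 at 0.23 ± 0.15 and Neurod1 at 0.098 ± 0.026. Of 10 markers of ventral neurons none passed in either direction (median 0.029 ± 0.034), whereas 4 were higher and 0 lower in the turned reading (median 0.079). Of the cortical and preplate markers 1 was higher and 1 lower when turned. Of 12 radial glia markers 2 were higher, the patterning factor Lhx2 at 0.28 ± 0.12 and the receptor Notch1 at 0.16 ± 0.17, and 0 lower (median 0.059 ± 0.025), and of 6 markers of intermediate progenitors none passed (median 0.00088 ± 0.065). Turned, 0 radial glia markers were higher and 1 lower, and 0 intermediate progenitor markers were higher and 1 lower.

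Most markers of lens, mesenchyme and red cells were also higher in the numerator pool. The counts that follow stand beside 7.07% of all genes higher and 4.15% lower as deposited. In the turned reading these shares were 10.8% and 5.55%. Of 14 lens markers 12 were higher, with means of the list between -0.022 and 1.21 and a median of 0.50, and 0 were counted in the turned reading (median 2.5e-04). Of 12 mesenchyme and meninges markers 7 were higher and 1 lower, Twist1 at -0.28 ± 0.20. Means of that list lay between -0.28 and 0.43, and 1 was higher and 0 lower in the turned reading. Of 6 red cell markers 5 were higher, with means between 0.010 and 0.29, and 0 were higher and 1 lower in the turned reading. Of 2 measured retina markers 1 was higher, Rax at 0.16 ± 0.019. Peripheral ganglion neurons, which are rich in neurofilaments, could hardly be judged, since 3 of 13 markers had values on all arrays, Isl1 at -0.087, Pou4f1 at -0.0005 and Ntrk3 at 0.018, and 0 of the 3 passed. Of 3 measured markers of Schwann cells and other glia 1 was higher, Sox10, a factor of neural crest and glia, at 0.12 ± 0.058. The pools also differed in sex markers, with Xist at -3.38 ± 0.11, Eif2s3y at 2.10 ± 0.33 and Kdm5d at 0.80 ± 0.084, while Zfy1 had 0.062 ± 0.077. Their turned means were -0.077 for Xist, 0.28 for Eif2s3y, 0.066 for Kdm5d and -0.045 for Zfy1. The part of these tissues and of sex in the neurofilament values was not tested.

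The genes most like the mean profile of Nefl and Nefm over the 4 arrays, by root mean square distance, were Col5a1 (0.034), Srrm2 (0.036) and Ltbp4 (0.038), at the distance of Nefl and Nefm themselves from that profile (0.037 each). Col5a1 encodes a fibrillar collagen chain, Ltbp4 a matrix protein that binds latent TGF-beta, and Srrm2 a splicing factor. Their means were 0.29 ± 0.081 for Col5a1, 0.30 ± 0.086 for Srrm2 and 0.27 ± 0.097 for Ltbp4. With 4 arrays such likeness is mostly likeness of size and of the gap between dye orientations.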

How the data were processed

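Total RNA of 1 pool per genotype came from a Trizol extraction, and linear amplification and labelling started from 1 ug, per the labels' protocols. The authors deposited 1 log ratio per spot and array for 44290 spots (60-base probes), and these deposited values were read here as log2. The following are not stated in the sources used here: scanner software, background correction, normalization, filter, log base and direction. The largest size of 5.76 exceeds the 4.82 that a log10 ratio of 16-bit intensities can reach, which speaks against log10. It does not tell log2 from natural logs. Without intensities the signal over background stays unknown. Precision is limited by the number of arrays. A value was present for 53.7% to 65.3% of spots per array.

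Over all spots with 4 values, arrays of opposite dye orientation correlated at -0.661 to -0.596, and over named spots at 0.0367 to 0.116 (Pearson, across spots). These correlations do not settle the direction, and both readings are given. Xist was at -3.53 and -3.38 with 152F7 in Cy5, and at -3.33 and -3.27 with wild type in Cy5. Eif2s3y was at 2.39 and 2.37 with 152F7 in Cy5, and at 1.77 and 1.87 with wild type in Cy5. Like signs on all arrays for Xist, Eif2s3y and Kdm5d, and the likeness of spots of one gene, led to the reading as deposited, after the values had been seen.

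Spots were named by the platform annotation. Of these, 32042 have 1 symbol and the 47 with several were left out. All 10 symbols matched GRCm38.p6 by Entrez identifier. Each gene was given the mean of its spots with 4 values (17767 spots). The threshold was taken on a grid of 0.005 (python 3.11.15, pandas 2.3.3). The rule was tested on simulated data. Named genes were the 10 genes with every spot, Dyrk1a, the sex chromosome genes and the 3 nearest profiles. Up to 4 genes past the threshold by size were named in each other list. The lens, mesenchyme and red cell markers were given as counts instead, with the lower one, Twist1, named. Others were named after their values were seen. The genes and lists were chosen with earlier results of these data known. Alternatives were the turned reading, each orientation alone, each array left out, the choice and filter of spots, centring, natural logs, and the threshold.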

Additional observations from a re-analysis of the deposited data

Results flagged for a closer look

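Stmn2 and Map2 were marked because their 2 arrays of one dye orientation were above 0 and the 2 of the other below 0. The mean with 152F7 in Cy5 minus that with wild type in Cy5 was 0.39 for Stmn2 and -0.19 for Map2. Neither difference was tested. Of all 11791 genes, 20% were above 0 on both arrays with 152F7 in Cy5 and below 0 on both with wild type in Cy5, as Stmn2 was, and 10.8% showed the reverse, as Map2 did.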

How the results depend on the processing

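The count of 4 higher and 0 lower held within 1.5 times in all alternatives but these. At 1.2-fold 2 were higher and at 1.5-fold 0. In the turned reading 1 was higher and 1 lower. With wild type in Cy5 alone 1 was lower, Stmn2, where 18.0% of all genes were lower. The higher count held there, at 5, where 13.1% of all genes were higher. With 152F7 in Cy5 alone both counts held, with 6 higher, but so were 22.3% of all genes. The median moved to 0.19 in that setting. Leaving out 1 array at a time gave 4 to 5 higher, 0 lower and medians of 0.092 to 0.17. Apart from the other thresholds, Nefl and Nefm stayed above 0 in all 13 alternatives and were counted as higher in 12, the turned reading being the exception. Both were also counted at 1.2-fold and neither at 1.5-fold. Mapt and Map1b were above 0 in 13 and counted as higher in 11. With natural logs, threshold and values scale together, and Nefl and Nefm would be at 0.42 and 0.47. Each value already compares the pools on the same array, and no test was run with 1 pool per genotype. Signal over background is unknown, so what it limits cannot be given.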

Other observations

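Some genes next to the neuronal cytoskeleton genes on their chromosomes are given for comparison. Dock5, the protein-coding gene on the other side of Nefl, had a mean log2 ratio of -0.026 ± 0.11, and Kansl1, next to Mapt, had -0.024 ± 0.014. Map2 is next to Crygf, a gamma crystallin gene of the lens, which had 0.98 ± 0.065 while Map2 had 0.023 ± 0.11. Cartpt, a neuropeptide gene next to Map1b, had 0.25 and 0.21 with 152F7 in Cy5 and -0.026 and 0.020 with wild type in Cy5, a mean of 0.11 ± 0.14 that was close to that of Map1b (0.14 ± 0.085) but not counted as higher.

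Dcx is on the X chromosome, and the pools differed in sex markers. The median of 386 measured X-linked genes was -0.0027, with 18 higher and 22 lower at the threshold. Over all genes 7.07% were higher and 4.15% lower.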
